A study of Mus musculus with 5 samples.

Results

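Of the places in the mouse genome where reads of the transcription factor E2F4 and of RNA polymerase II (RNA Pol II) were both enriched, those where the RNA Pol II enrichment was the larger are described here. They were chosen by measured values. The autosomes were divided into bins of 500 bp, and the fold of a library in a bin was its share of reads there (plus 1 read) over the same share in whole cell extract (WCE, chromatin without antibody, 2 libraries summed). A bin was taken where E2F4 had at least 8 reads and a fold of at least 3, RNA Pol II had at least 10 reads and a fold of at least 3, and the E2F4 fold was below the RNA Pol II fold. Of 3915042 bins with at least 1 read in any library, 8044 passed, which is 0.205%, and joining adjacent bins gave 6472 regions. The E2F4 minima alone were passed by 0.314% of bins, the RNA Pol II minima by 0.842% and both by 0.265% (10374 bins), and 0.0595% passed both with an E2F4 fold at or above the RNA Pol II fold. Since the same libraries chose the regions, their E2F4, RNA Pol II and WCE values are a description. The choice did not use the H3K27me3 reads. It did test the E2F4, RNA Pol II and WCE reads of every bin, so values of bins beside a region are not independent of it. Distances between summits are computed from the same E2F4 and RNA Pol II reads and are in part set by the choice.

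The cells were secondary mouse embryonic fibroblasts in which Klf4, Sox2 and Oct4 can be induced with doxycycline. Induced pluripotent cells with these cassettes and an Oct4-selectable cassette had been placed in BDF2 blastocysts, chimeric embryos gave the fibroblasts at 13.5 days post coitum, and puromycin (2 µg/ml, 48 hours) selected those descended from the injected cells. The labels do not state whether doxycycline was given, and all 5 libraries carry the same description of the cells. Chromatin was precipitated with antibodies to E2F4 (Santa Cruz SC-1082), RNA Pol II (8WG16, Covance MMS-126R) and the histone mark H3K27me3 (Abcam AB6002), with 1 library for each, so no difference between libraries has a replicate check and no p-value is given.

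E2F4 belongs to the E2F family and is known mostly as a repressor that works with the pocket proteins p107 and p130 at promoters of cell cycle genes. RNA Pol II transcribes protein-coding genes and often gathers close to their start sites, and the antibody 8WG16 recognises the repeated tail of its largest subunit, with a preference for the unphosphorylated form. H3K27me3 is placed by the Polycomb complex PRC2 and marks repressed genes.

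After keeping 1 read per position and strand, the libraries held 1971874 (E2F4), 3111606 (RNA Pol II), 9483163 (H3K27me3), 417799 (WCE replicate 1) and 11226593 (WCE replicate 2) autosomal reads. Per the file headers, E2F4, RNA Pol II and WCE replicate 1 came from the same flow cell, and H3K27me3 and WCE replicate 2 from another. The summed WCE was therefore mostly a library of another run: 151862 of its 152263 reads in the regions came from WCE replicate 2. Intervals here are exact, at 95%, and cover counting error only. The libraries were amplified and carry no molecular identifiers, so reads are not independent molecules, and intervals on shares or medians over regions treat each region as independent, which neighbouring regions are not.

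The regions were short and held much of the RNA Pol II library. They took 26.1% of the distinct RNA Pol II reads and 8.40% of the E2F4 reads, against 1.35% in WCE replicate 2, 0.0960% in WCE replicate 1 and 0.514% in H3K27me3. A region held a median of 20 E2F4 reads (8 to 178) and 106 RNA Pol II reads (14 to 957). The same regions held a median of 21 summed WCE reads (0 to 142), and 2 regions held none. The median fold was 5.65 for E2F4 (quartiles 4.26 and 7.97) and 17.9 for RNA Pol II (quartiles 12.2 and 25.4), so that most of the E2F4 folds lay within a few units of the minimum of 3 while most RNA Pol II folds were far above it. Of the regions, 5048 (78.0%) were a single bin of 500 bp and 1296 (20%) were 1000 bp long. Only 2 were longer than 2000 bp.

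The margin by which RNA Pol II led was usually wide. Among the bins that passed both minima, 77.5% (76.7 to 78.3) had the higher fold for RNA Pol II. Because the WCE term is the same in both folds, this comparison is one of read density between the E2F4 and RNA Pol II libraries, each scaled by its own autosomal total. The ratio of RNA Pol II to E2F4 density had a median of 2.86 (2.82 to 2.92) over the regions, with quartiles of 1.88 and 4.31. It was at least 2 in 4633 regions (71.6%), at least 5 in 1150 (17.8%) and at least 10 in 91. When libraries were instead scaled on background windows (10 kb windows that neither hold nor neighbour a bin passing the E2F4 or RNA Pol II minima), the share of bins led by RNA Pol II was 92.2% and the median ratio 6.25, so where the line between the classes falls depends on how an antibody's background is set.

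**Figure D1:**
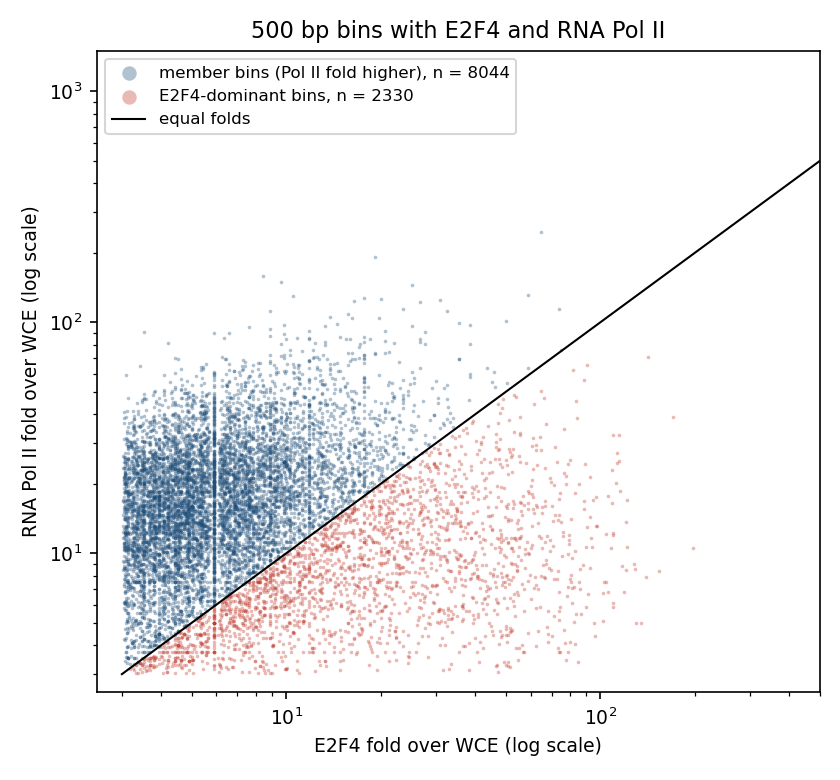
Each point is a 500 bp bin that passed the E2F4 and RNA Pol II minima, with its E2F4 fold over WCE on the horizontal axis and its RNA Pol II fold on the vertical axis (both log scales); the line marks equal folds. The 8044 member bins above the line crowd towards low E2F4 folds, and the 2330 E2F4-dominant bins below it spread to high E2F4 folds; the position relative to the line is set by the choice of bins.

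The boundary of equal folds cut through a continuous range. There were 290 member bins with a ratio under 1.1 and 298 bins on the E2F4 side with a ratio over 0.9. The bin chr3:37611501-37612000 (mouse build mm8, as are all positions here) lay just inside, with 37 E2F4 reads, 59 RNA Pol II reads, 9 H3K27me3 reads and 0 and 39 reads in the WCE libraries, and folds of 5.61 and 5.61. Also just inside were chr11:61321001-61321500, with 37 E2F4 and 59 RNA Pol II reads, and chr11:101131501-101132000, with 18 and 29. Just outside lay chr18:33338501-33339000, with 96 E2F4 and 152 RNA Pol II reads and a ratio of 0.9996. The other two nearest bins outside, chr14:72259001-72259500 and chr5:25039001-25039500, both held 13 E2F4 and 21 RNA Pol II reads. At counts of this size a single read moves a bin across the line.

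To see how far the choice survives on reads it did not use, every library was divided at random into 2 parts, once, and 8408 bins were chosen on the first part with the read minima lowered to 4 and 5. In the second part, the RNA Pol II fold was again the higher in 94.8% (94.3 to 95.2) of them. The E2F4 minima were passed again by 69.3% (68.3 to 70.2) and the whole rule by 64.5% (63.5 to 65.5). These shares cannot be set against each other, since a bin with few E2F4 reads in the second part still counted as led by RNA Pol II. The median ratio was 2.64 in the part used to choose and 3.11 in the other. Both parts come from the same libraries, so this covers counting only and is no biological replicate.

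The 5 regions with the highest lower limit of the RNA Pol II to E2F4 ratio held 9 to 17 E2F4 reads beside 296 to 436 RNA Pol II reads. At chr3:108682501-108683000 there were 10 E2F4 reads, 332 RNA Pol II reads, 6 H3K27me3 reads, 0 reads in WCE replicate 1 and 20 in WCE replicate 2, a density ratio of 19.2 (11.3 to 44.3). At chr4:131542001-131542500 the E2F4, RNA Pol II, H3K27me3 and WCE replicate 2 counts were 9, 305, 4 and 13, and the ratio was 19.4 (11.2 to 47.4). In both regions RNA Pol II was the only library that stood far above WCE, and the E2F4 folds were 3.09 and 4.22. At chr3:121715501-121716000, with 9 E2F4, 296 RNA Pol II, 5 H3K27me3 and 6 WCE replicate 2 reads, the RNA Pol II fold was 159 over that small WCE count. The remaining regions of the 5 were chr3:95744001-95744500 (ratio 19) and chr11:87239001-87239500 (ratio 15.4). The latter, with 17 E2F4 reads and an E2F4 fold of 9.66, was not near the E2F4 minima, and it adjoined an E2F4-dominant bin.

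The 5 regions with the most E2F4 reads sat near the other end of the ratio. The highest count, at chr12:9056001-9056500, was 178 E2F4 reads beside 327 RNA Pol II, 14 H3K27me3, 0 WCE replicate 1 and 44 WCE replicate 2 reads, a ratio of 1.16 (0.967 to 1.41). At chr9:44085501-44086000 there were 172 E2F4, 305 RNA Pol II, 9 H3K27me3 and 31 WCE replicate 2 reads, a ratio of 1.12 (0.929 to 1.36). At chr10:86135001-86135500 there were 154 E2F4, 258 RNA Pol II, 7 H3K27me3 and 39 WCE replicate 2 reads, a ratio of 1.06 (0.866 to 1.30). The intervals of these 3 ratios include 1, so which library led there is not settled at this depth. The other two, chr12:100588001-100589500 and chr8:11555001-11556000, had ratios of 1.58 (1.31 to 1.92) and 1.61 (1.34 to 1.96).

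Long regions were few, with 2 over 2000 bp and 14 of exactly 2000 bp, and those named are the first 2 and the 3 of the 14 with the most reads over all libraries. In each of these 5 the RNA Pol II density was the higher by more than its counting interval. The longest, chr11:74646001-74649500, spanned 3500 bp and held 124 E2F4, 530 RNA Pol II, 34 H3K27me3, 0 WCE replicate 1 and 142 WCE replicate 2 reads, a ratio of 2.69 (2.22 to 3.32). It made up the whole of a run of 7 bins with RNA Pol II. The region chr17:33729001-33731000 held 79 E2F4 reads and 957 RNA Pol II reads, the most RNA Pol II reads of any region and 1 of the 3 picked among those of 2000 bp, with 22 H3K27me3 reads and 1 and 62 reads in the WCE libraries. On its right, 1 to 3 kb beyond its edge, lay 428 RNA Pol II reads, against 24 on its left. The region chr10:127069501-127071500 lay in a run of 22 RNA Pol II bins, with 85 E2F4 and 667 RNA Pol II reads. The other two were chr4:94543501-94546000 (ratio 3.57) and chr1:36501001-36503000 (ratio 5.85).

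**Figure D2:**
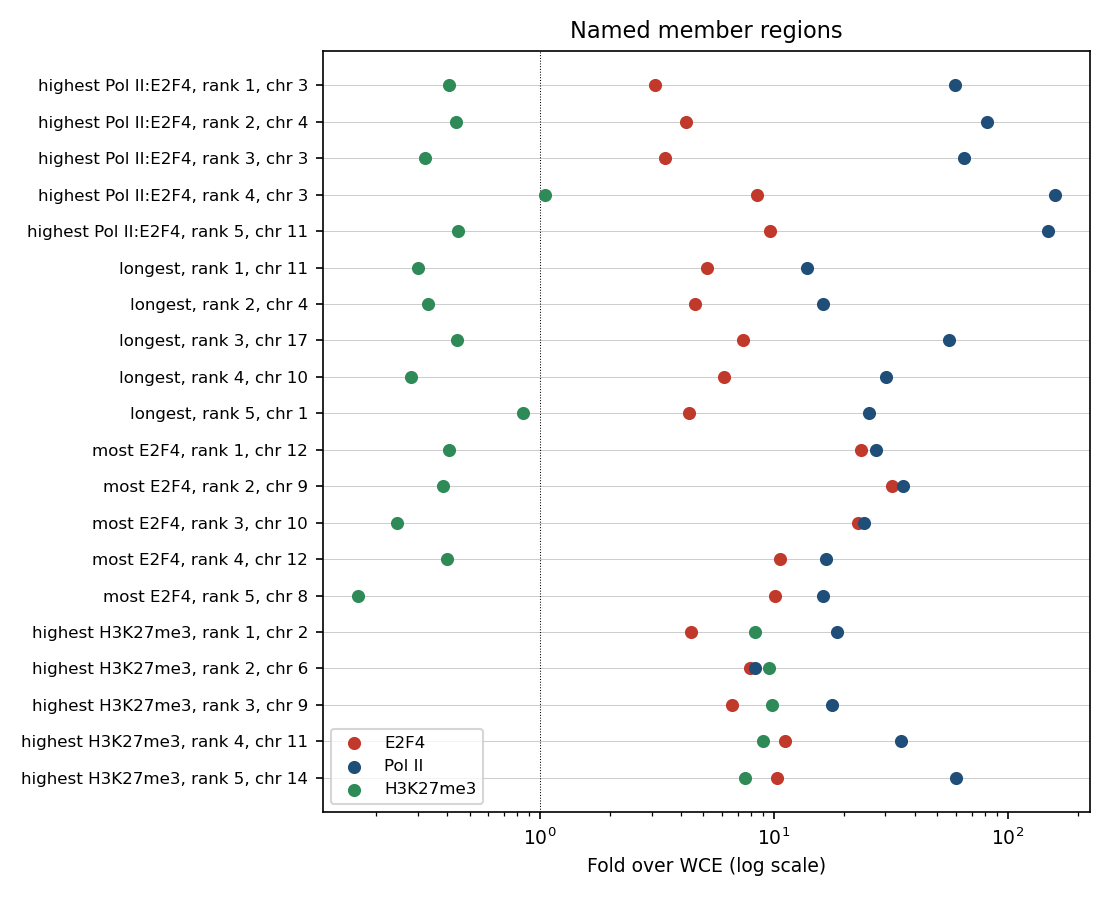
Folds over WCE (log scale) of E2F4, RNA Pol II and H3K27me3 in the 20 regions picked by rank (ties by most reads), 5 each for the highest lower limit of the RNA Pol II to E2F4 ratio, length, E2F4 reads and the highest lower limit of the H3K27me3 to WCE ratio. RNA Pol II lies to the right of E2F4 in all 20, as the choice requires, and H3K27me3 passes a fold of 3 only in the 5 picked for it.

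H3K27me3, which the choice did not use, was low in nearly all regions against summed WCE, which was nearly all WCE replicate 2. The choice did use that WCE. The regions held 0.514% of the H3K27me3 reads, against 1.35% of WCE replicate 2 and 0.0960% of WCE replicate 1. Against replicate 1, H3K27me3 was thus high, so the direction depends on the control library. The median region held 6 H3K27me3 reads (0 to 216), a fold of 0.409, and the fold was under 1 in 6077 of 6472 regions (93.9%). Summed over the regions, H3K27me3 density was 0.393 (0.389 to 0.397) of that in summed WCE. Against the sequence 5 to 20 kb away on both sides, however, H3K27me3 density was 2.11 times as high (2.09 to 2.13). WCE replicate 2 was 4.59 times as high (4.57 to 4.61) by the same measure and WCE replicate 1 was 0.471 times as high (0.425 to 0.519, from 401 reads), so the control libraries were themselves uneven at these regions, in opposite directions. What in the WCE libraries moves with the regions was not tested. For comparison, E2F4 density was 28.4 and RNA Pol II density 51.6 times that of the flanks, values that the choice itself sets high.

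These H3K27me3 values were close to those of the E2F4-dominant regions, the 1963 regions with an E2F4 fold at or above the RNA Pol II fold. There, H3K27me3 was 2.06 (2.03 to 2.10) times the flanks and 0.381 (0.374 to 0.388) of WCE, with WCE replicate 2 at 4.59 times the flanks. A last set, called RNA Pol II regions without E2F4 here, was the 13828 regions that passed the RNA Pol II minima and not those of E2F4. E2F4 was not absent from them: it was 4.76 (4.72 to 4.79) times the flanks and 1.55 (1.54 to 1.56) times summed WCE, with a median fold of 1.77. In this set H3K27me3 was 2.01 (2.00 to 2.02) times the flanks and 0.559 (0.556 to 0.563) of WCE, with WCE replicate 2 at 3.14. The larger value against WCE in that last set thus came with a smaller WCE replicate 2 density against the flanks. Across the 5048 member regions of 500 bp, the RNA Pol II to E2F4 ratio and the number of H3K27me3 reads had a Spearman correlation of -0.00725, given as a description over regions that share the same libraries.

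A window of 2 kb counted as rich in H3K27me3 where it held at least 10 reads and a fold of at least 3. Of the member regions, 61 lay in such a window, 0.943% (0.722 to 1.21), against 3.11% of all windows with at least 1 read. The share was 1.07% (0.663 to 1.63) of E2F4-dominant regions and 1.91% (1.69 to 2.15) of RNA Pol II regions without E2F4. With the read minima raised to 16 and 20, it was 0.508%. The fold that defines such a window has summed WCE in its denominator, and WCE replicate 2, most of that sum, was high in all these sets. The 61 regions held a median of 53 RNA Pol II reads and 13 E2F4 reads, against 106 and 20 over all member regions, with a median ratio of 1.84 and a median H3K27me3 fold of 3.55. Their flanks were also high in H3K27me3, at 3.14 times (3.11 to 3.18) the mean over bins with a read, where WCE replicate 2 stood at 1.32. In 19 of the 61 (31.1%) the RNA Pol II signal passed its minima in a single bin, against 741 of all 6472 (11.4%).

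The 5 regions with the highest lower limit of the H3K27me3 to WCE ratio carried E2F4, RNA Pol II and H3K27me3 in the same bins. The region chr2:181389001-181390000 held 23 E2F4, 159 RNA Pol II, 216 H3K27me3, 0 WCE replicate 1 and 31 WCE replicate 2 reads, an H3K27me3 to WCE ratio of 8.56 (5.85 to 12.9). The region chr14:45309001-45310000 held 27 E2F4, 257 RNA Pol II, 97 H3K27me3 and 15 WCE replicate 2 reads, with an RNA Pol II fold of 60.3. The RNA Pol II fold of the former was 18.7. The lowest RNA Pol II fold of the 5, 8.32, was at chr6:6812501-6813000. That region held 11 E2F4, 19 RNA Pol II, 69 H3K27me3 and 1 and 7 WCE reads, with an RNA Pol II to E2F4 ratio of 1.06 (0.495 to 2.55). The remaining regions, chr9:24524501-24525000 and chr11:118862501-118863000, held 63 and 65 H3K27me3 reads beside 37 and 83 RNA Pol II reads, with RNA Pol II folds of 17.8 and 34.9. Both were runs of 1 RNA Pol II bin with no adjoining bin that passed either set of minima. Reads from a mixed cell population do not show whether the factors and the mark were on the same chromosomes.

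Most member regions were the piece of a slightly longer stretch of RNA Pol II that passed the E2F4 minima. A region lay in a run with a median of 2 consecutive RNA Pol II bins, and 473 regions (7.31%) lay in runs of 6 or more, up to 53. The median was also 2 for E2F4-dominant regions and for RNA Pol II regions without E2F4. Runs of 6 or more held 3.52% and 6.31% of those sets. A bin that passed the RNA Pol II minima and not those of E2F4 adjoined exactly 1 side of 3145 regions (48.6%) and both sides of 1544 (23.9%). Another 1115 (17.2%) had no adjoining bin that passed either set of minima. Among E2F4-dominant regions, these shares were 31.3%, 4.69% and 22.2%. Of 14416 runs of RNA Pol II bins, 6198 held a member region and 255 held 2 or more. Member regions with such a bin on both sides had a median of 128 RNA Pol II reads and a ratio of 3.50. Those with no adjoining bin that passed either set of minima had 105 reads and a ratio of 2.53.

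Some regions lay directly beside a bin in which E2F4 led. An E2F4-dominant bin adjoined 803 of the 6472 regions (12.4%, 11.6 to 13.2), on both sides in 13. These regions had a median RNA Pol II to E2F4 ratio of 2.17. Seen from the other side, 779 of the 1963 E2F4-dominant regions (39.7%) adjoined a member bin. The share of 12.4% depends on the scaling: with the libraries scaled on background windows it was 5.88%, and without WCE replicate 2 it was 9.48%. The division into separate bins also makes these pairs, since none is left when bins that pass both minima are joined before the folds are compared.

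Beyond their edges, many regions had RNA Pol II mostly on 1 side. A side was called rich where it held at least 2 times as many RNA Pol II reads 1 to 3 kb from the edge as the other, with at least 10 reads on both sides together. This was so for 2373 member regions, 36.7% (35.5 to 37.9), against 32.3% of all runs of RNA Pol II bins. It was so for 32.1% (30.1 to 34.3) of E2F4-dominant regions and 43.1% (42.3 to 44.0) of RNA Pol II regions without E2F4. Another 3294 member regions (50.9%) had fewer than 10 reads on both sides together and could not be called. The same held for 1178 of the 1963 E2F4-dominant regions and 6138 of the 13828 RNA Pol II regions without E2F4. The set with the most such regions for its size thus had the lowest share, and the set with the fewest the highest. Since the shares count regions that could not be called, they do not rank the sets by how one-sided RNA Pol II was. The rich side was to the right in 1218 of the 2373 (51.3%). E2F4 reads were also more frequent on that side, 26531 against 5899, a ratio of 4.50 (4.37 to 4.63), while RNA Pol II, which defined the side, gave 9.06. For H3K27me3 the ratio was 1.37 (1.35 to 1.39), for WCE replicate 2 it was 1.78 (1.76 to 1.80) and for WCE replicate 1 it was 0.846 (0.777 to 0.920). The E2F4 ratio was 4.69 (4.46 to 4.93) beside E2F4-dominant regions and 4.93 (4.85 to 5.01) beside RNA Pol II regions without E2F4, so a leaning of E2F4 reads to the RNA Pol II-rich side was measured in all 3 sets. The sets are not separate observations, since 39.7% of E2F4-dominant regions and 43.4% of RNA Pol II regions without E2F4 adjoined a member bin.

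**Figure D3:**
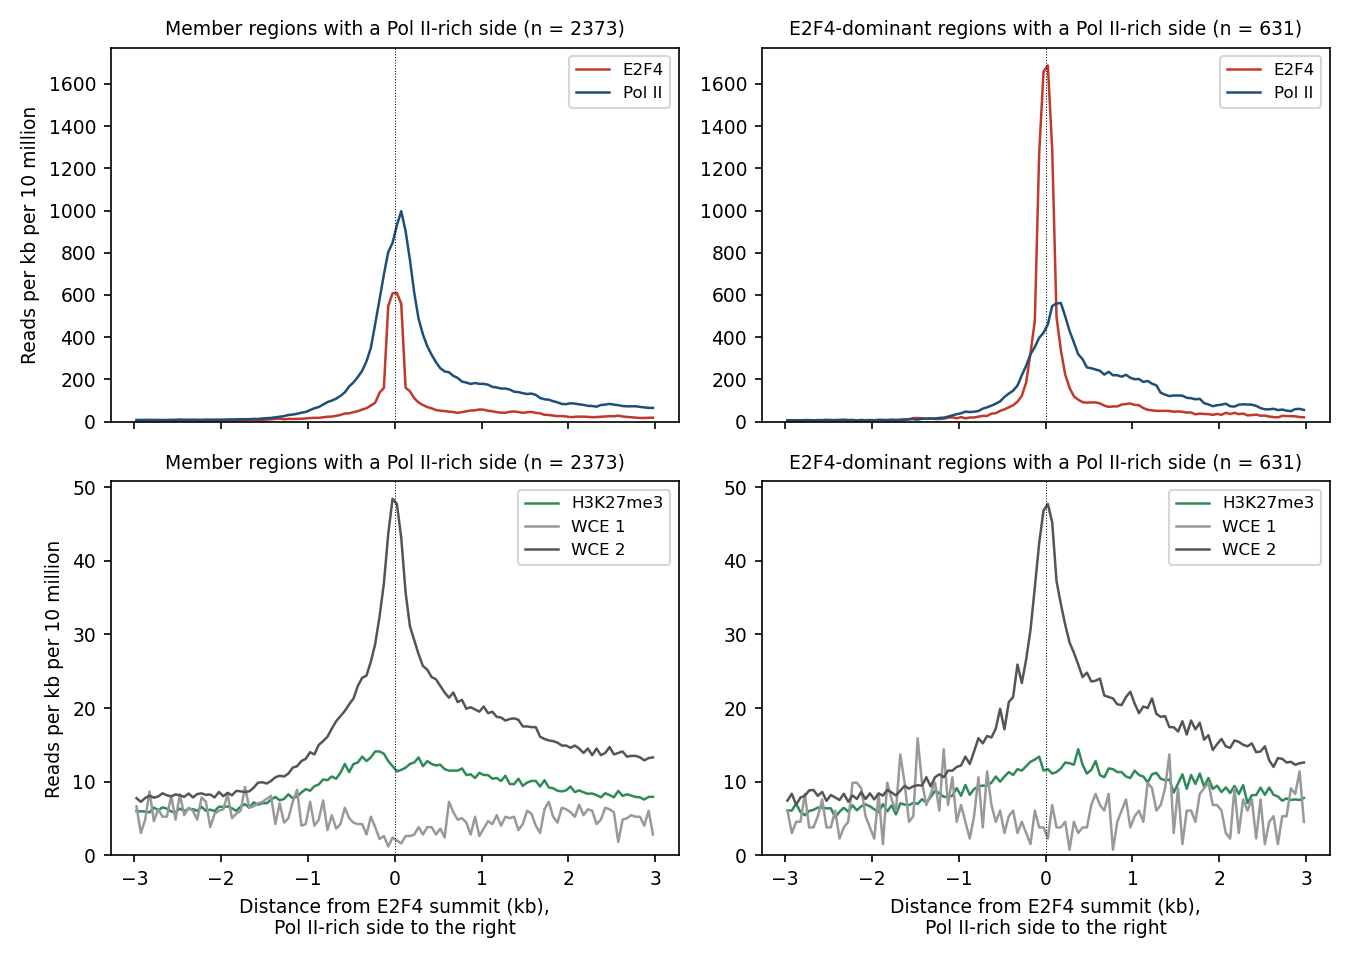
Mean read density (reads per kb per 10000000 distinct autosomal reads, in steps of 50 bp) around the E2F4 summit, turned so that the RNA Pol II-rich side is on the right, for 2373 member regions (left) and 631 E2F4-dominant regions (right), with E2F4 and RNA Pol II above and H3K27me3 and WCE below on a scale of their own. In member regions RNA Pol II is highest, at 997, to the right of the E2F4 summit and trails to the right; the E2F4 peak at 0 and the side of the RNA Pol II tail follow from the alignment.

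The RNA Pol II summit lay close to the E2F4 summit and leaned towards the RNA Pol II-rich side, which RNA Pol II reads themselves define. A summit was the centre of the densest 200 bp of a library within the region widened by 500 bp on both sides. In absolute terms the summits were a median of 115 bp apart (112 to 118) in the member regions and 150 bp (143 to 156) in E2F4-dominant regions. They were within 100 bp of each other in 44.2% (43.0 to 45.5) and 33.8% (31.7 to 36) of the regions. In the 2373 regions with a rich side, the RNA Pol II summit was displaced towards it by a median of 48.0 bp (37.5 to 57.5) and lay on that side in 1440 (60.7%, 58.7 to 62.7). In the 631 E2F4-dominant regions with a rich side the displacement was 115 bp (100 to 132) and the share 68.8% (65.0 to 72.4). In the RNA Pol II regions without E2F4, the displacement was -5.50 bp (-10.0 to -0.500), slightly towards the poorer side. There, 48.5% (47.3 to 49.8) of 5862 lay on the rich side and the median absolute distance was 130 bp. These regions held a median of 4 E2F4 reads between their own edges. Of the 13828, 6008 (43.4%) adjoined a member bin, whose E2F4 reads the widened search could take in. An offset towards the richer side was thus measured in the sets that passed the E2F4 minima, and the last set is no clean contrast to them. The smaller distances in member than in E2F4-dominant regions are a description, since the summits come from the reads that chose both sets. The single offsets were wide, with 5% of these member regions below -397 bp and 5% above 561 bp.

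**Figure D4:**
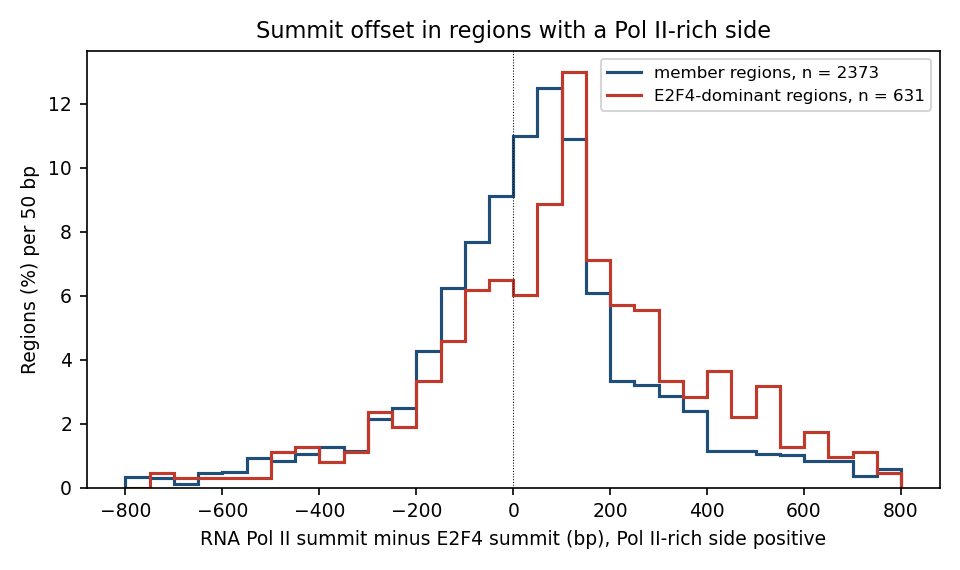
Distribution of the distance from the E2F4 summit to the RNA Pol II summit (bp, positive towards the RNA Pol II-rich side) as the percentage of regions per 50 bp. The 2373 member regions have a median of 48.0 bp and the 631 E2F4-dominant regions one of 115 bp, and both distributions extend to both sides of 0.

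Density was then compared between the E2F4 summit and its surroundings. E2F4 density within 100 bp of the summit was 7.95 times that at 200 to 400 bp in the member regions, a value that centring on E2F4 raises, and 12.8 times in E2F4-dominant regions. RNA Pol II density was 2.49 times as high (2.48 to 2.5) and WCE replicate 2 density 1.80 times (1.78 to 1.82). H3K27me3 was slightly lower at the summit than beside it, at 0.919 (0.901 to 0.937), and in E2F4-dominant regions at 0.911 (0.878 to 0.944). WCE replicate 1 gave 0.470 (0.369 to 0.593) from 90 reads within 100 bp. Since all libraries were centred on the densest E2F4 reads, the values for E2F4 and RNA Pol II do not compare the widths of their peaks. H3K27me3 was thus lower at a place where the deeper WCE library was higher than beside it.

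Member regions were then ordered by their RNA Pol II to E2F4 ratio and divided into 5 classes of 1294 or 1295. From the lowest to the highest class, median RNA Pol II reads went from 49 to 168, median E2F4 reads went from 22 to 14 and median WCE reads from 18 to 20, as the ordering itself dictates for E2F4 and RNA Pol II. The share that adjoined an E2F4-dominant bin went from 21.6% (19.4 to 24.0) to 6.18% (4.93 to 7.64). The share in runs of 6 or more RNA Pol II bins went from 5.10% (3.96 to 6.44) to 10.8% (9.18 to 12.6), and the share with an RNA Pol II-rich side from 33.1% (30.6 to 35.8) to 43.6% (40.9 to 46.3). Regions with more RNA Pol II relative to E2F4 were thus more often in long runs of RNA Pol II bins and less often beside an E2F4-dominant bin. These measures come from RNA Pol II and E2F4 reads next to the ones used for the ordering, so they are not independent of it. The share with an RNA Pol II-rich side also counts regions with too few reads on both sides to be called. Their number in each class is not given here, so this share does not rank the classes by how one-sided RNA Pol II was. H3K27me3 density over flanks stayed between 2.06 and 2.15 in the 5 classes, and regions in an H3K27me3-rich window numbered 26, 13, 7, 8 and 7.

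**Figure D5:**
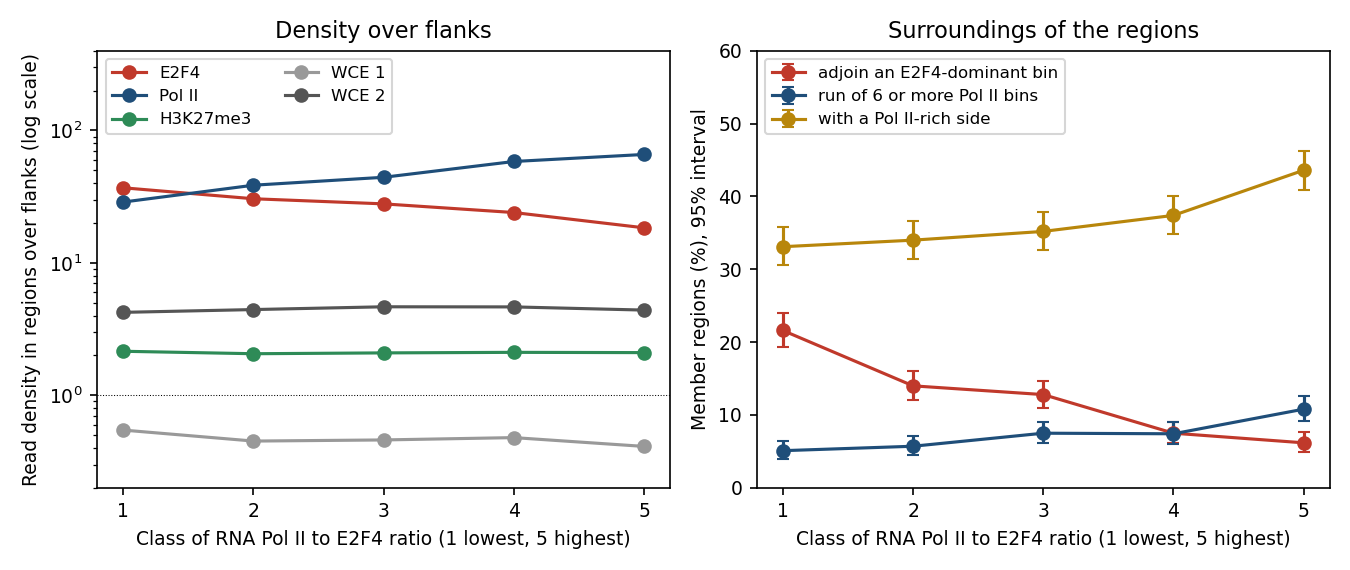
Left, read density in member regions over that in flanks (log scale) for the 5 libraries, by class of RNA Pol II to E2F4 ratio from lowest (1) to highest (5). Right, the share of regions in each class that adjoin an E2F4-dominant bin, lie in runs of 6 or more RNA Pol II bins or have an RNA Pol II-rich side, with exact 95% intervals; the first is 21.6% in class 1 and 6.18% in class 5, the other two are higher in class 5 than in class 1, and H3K27me3 over flanks stays between 2.06 and 2.15.

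Read counts of the libraries moved together over the regions. Across the 5048 regions of 500 bp, Spearman correlations, as a description, were 0.515 between E2F4 and RNA Pol II, 0.586 between E2F4 and summed WCE, and 0.50 between RNA Pol II and summed WCE. The correlation of E2F4 with the control was thus no smaller than that with RNA Pol II. Regions that pass with many WCE reads need more reads of both antibodies to reach a fold of 3, which the choice imposes.

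The regions were spread over all autosomes. Their number ran from 192 on chromosome 13 to 613 on chromosome 11, or from 1.59 to 5.03 per Mb. The share of bins passing both minima in which RNA Pol II led ran from 72.4% (67.0 to 77.3) on chromosome 13 to 80.5% (75.6 to 84.9) on chromosome 18, and the median ratio from 2.64 on chromosome 14 to 3.23 on chromosome 12. The density of regions thus varied more between chromosomes than the lead of RNA Pol II within them. Neighbouring regions were a median of 98.5 kb apart, and 303 of 6453 gaps (4.70%) were under 2 kb.

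Genes, exons and sequences under these regions were not analysed here, since the reads are on build mm8 and the reference tables used are on another build. The number of regions followed the thresholds: it was 4123 with a fold minimum of 5 and 3737 with read minima of 16 and 20.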

How the data were processed

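The deposited values are signed positions of aligned reads, taken here as 1 line per placement. Per the file headers, the authors aligned reads to mouse build mm8 with bowtie, whose -l setting was 36 for H3K27me3 and WCE replicate 2 and 26 for the other libraries, with -e at 70 and -k, -m and -n at 2. The submitters' processing notes name Bowtie without a version. Reads listed with 1 placement were kept once per position and strand on chromosomes 1 to 19, and 5′ ends were moved 60 bp downstream. The deposited position was taken as the leftmost base, with read lengths of 26 and 36 bp from the -l setting. Libraries were scaled by their autosomal totals. Where a library has 0 reads, its share can still be as high as 0.000152% for E2F4 or 0.000718% for WCE replicate 1 (3 reads of the total).

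Intervals are exact binomial (Clopper-Pearson, conditional for ratios of 2 counts). The scripts (Python 3.11.15, numpy 2.4.6, scipy 1.17.1, matplotlib 3.10.9) were tested on simulated data. The regions and measures were chosen with earlier results of these data known. The neighbour subsets, ratio classes, comparisons of sides and summit centres, and the random division of reads were chosen after values were seen. Named regions are the 5 with the highest lower limit of the RNA Pol II to E2F4 ratio, the 5 longest, the 5 with most E2F4 reads, the 5 with the highest lower limit of the H3K27me3 to WCE ratio, and the 3 bins nearest each side of equal folds. Alternatives changed the treatment of repeated reads, the shift, the bin start, the WCE library, the scaling, the fold and read minima, the depth of RNA Pol II, the pseudocount, the margin, the order of joining and the meaning of the deposited position.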

Additional observations from a re-analysis of the deposited data

Results flagged for a closer look

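The deposited lists also hold lines read here as reads with 2 placements, which none of the comparisons above use. The member regions' share of the E2F4 lines of this kind was 6.57 times (6.26 to 6.89) the share of the lines of both WCE libraries pooled. For RNA Pol II it was 29.2 times (28 to 30.4). WCE replicate 1 gave 253727 of the pooled lines, with 0.0804% in the regions, and replicate 2 gave 605991, with 0.385%. The shares were 1.94% for E2F4 and 8.61% for RNA Pol II, so both ratios would be smaller against replicate 2 alone. Against replicate 2, reads with 1 placement gave 6.21 for E2F4 and 19.3 for RNA Pol II, values that the choice sets high. The E2F4 ratio alone thus does not mark these lines as unusual. These lines were concentrated: the 100 regions with the most held 34.6% of the E2F4 lines and 30.1% of the RNA Pol II lines, and 4523 and 2290 of the 6472 regions held none. The file headers do not explain these lines. If read correctly, such a read is listed at both places, so its origin cannot be told apart from the copy.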

How the results depend on the processing

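The 8 results were recomputed under 13 settings. Only the summit offset and the H3K27me3 density over flanks could be called reversed, and neither was. Of the recomputed values, 72 stayed within the interval of the first value, or within 1.5 times for the number of regions. The other 31 moved beyond it. With a fold minimum of 5, there were 4123 regions, RNA Pol II led in 73.1% of co-occupied bins, the median ratio was 2.39, 10.9% of regions adjoined an E2F4-dominant bin, H3K27me3 was 2.02 times the flanks, 1.24% lay in an H3K27me3-rich window and the summit offset was 58.0 bp. With read minima of 16 and 20, these were 3737, 70.8%, 2.53, 10.5%, 2.16, 0.508% and 58.2 bp. With scaling on background windows, RNA Pol II led in 92.2%, the median ratio was 6.25, 5.88% adjoined an E2F4-dominant bin and H3K27me3 was 2.22 times the flanks. With RNA Pol II thinned to the E2F4 depth, it led in 79.9% and 10.9% adjoined. With a margin of 1.5 times, the values were 65.0%, 3.27, 10.4% and, for H3K27me3-rich windows, 0.710%. With all reads kept, the median ratio was 3.0. Joining before comparing gave no share of bins, 0 adjoining regions by construction, and H3K27me3 at 2.08 times the flanks. Leaving out either WCE library gave 75.3% to 77.2% of bins, median ratios of 2.70 to 2.83, 9.48% to 12.4% adjoining and H3K27me3 at 2.10 to 2.28 times the flanks. Without WCE replicate 2 there were 4450 regions, and their bins held 59.9% of the bins first chosen; without WCE replicate 1, 97.5%. The alternative meaning of the deposited position was chosen after seeing the data, gave 6466 regions and moved no result beyond its interval. Apart from these settings' own construction, the cause of each move was not tested. WCE replicate 1, with 417799 reads, had none in 6138 of the regions, which limits any control from the flow cell of E2F4 and RNA Pol II. Where it had 0 reads, the fold without WCE replicate 2 followed from the antibody reads alone. That setting acted there as a read minimum.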
